A study of Mus musculus with 6 samples.

Results

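Granins and the enzymes that process prohormones make up the core and the machinery of the dense-core secretory granule, and 10 of their genes were examined here in mouse adrenal glands: Chga, Chgb, Scg2, Scg3, Scg5, Resp18, Pcsk1, Pcsk2, Cpe and Pam. Each was read from all probe sets whose only gene symbol in the platform annotation is that gene. This gave 13 of the 12422 probe sets that are not controls, for 9 of the 10 genes. Pcsk2 had no such probe set and was not analysed here. RNA came from adrenals of males aged 12 weeks, of the hypertensive strain BPH and the hypotensive strain BPL, with 3 arrays per strain and no treatment. Both strains derive from mice bred selectively for their blood pressure, so they differ at many loci and model no single gene. Which granule transcripts differ between these adrenals is the question addressed. Whether 1 animal or several gave the RNA on each array is not stated, and p-values therefore measure the spread between arrays, which may be partly technical.

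Chromaffin cells of the adrenal medulla store catecholamines together with granins and peptides in dense-core granules, which are released into the blood on nerve stimulation. Granins are acidic proteins that bind calcium, condense in the late Golgi and fill the granule core, and they are themselves cut into peptides. Inside the maturing granule, prohormone convertases cleave precursors after pairs of basic residues, carboxypeptidase E removes those residues, and peptidylglycine alpha-amidating monooxygenase amidates the new end of many peptides. The medulla is a small share of the adrenal gland, so in these whole-gland samples more chromaffin cells and more RNA per chromaffin cell cannot be told apart.

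Of the 9 measured genes, Resp18 and Scg2 were called higher in BPH adrenals in the fit reported here, and no member was called lower. The call held in 10 of 19 alternative settings for Resp18 and in 4 of 19 for Scg2. Chga, Chgb, Scg3, Scg5, Pcsk1, Cpe and Pam did not pass the test. Of the 13 member probe sets, 11 were bright enough to be tested, and 2 of these 11 were called higher at an adjusted p under 0.05 (limma with Benjamini-Hochberg adjustment), against 3.18% of the 7453 probe sets tested. No member was called lower (0 by limma), against 0.926% of all, and 4.11% of all were called in either direction. All 11 tested members had a positive log2 difference, BPH minus BPL, and so did 4510 of all 7453, but Chga 162192_f_at and Scg5 turned negative with the authors' scaling and after quantile normalization. The median log2 difference was 0.35 over the 11 members and 0.08 over all tested probe sets. With the authors' own scaling the median over all tested probe sets was -0.022, and the members' median lay 0.25 above it, compared with 0.26 above in the fit reported here and 0.22 above after quantile normalization. Without BPL replicates 1 and 2, the arrays richest in skeletal muscle transcripts, it lay 0.15 above, and with a skeletal muscle covariate 0.026 above. In 3 of the 11 member probe sets the BPH arrays all lay above the BPL arrays, against 19.7% of all tested probe sets. In 0 of the 11 did they all lie below, against 7.97%, and strains without overlap in either direction made up 27.6% of all tested probe sets.

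**Figure D1:**
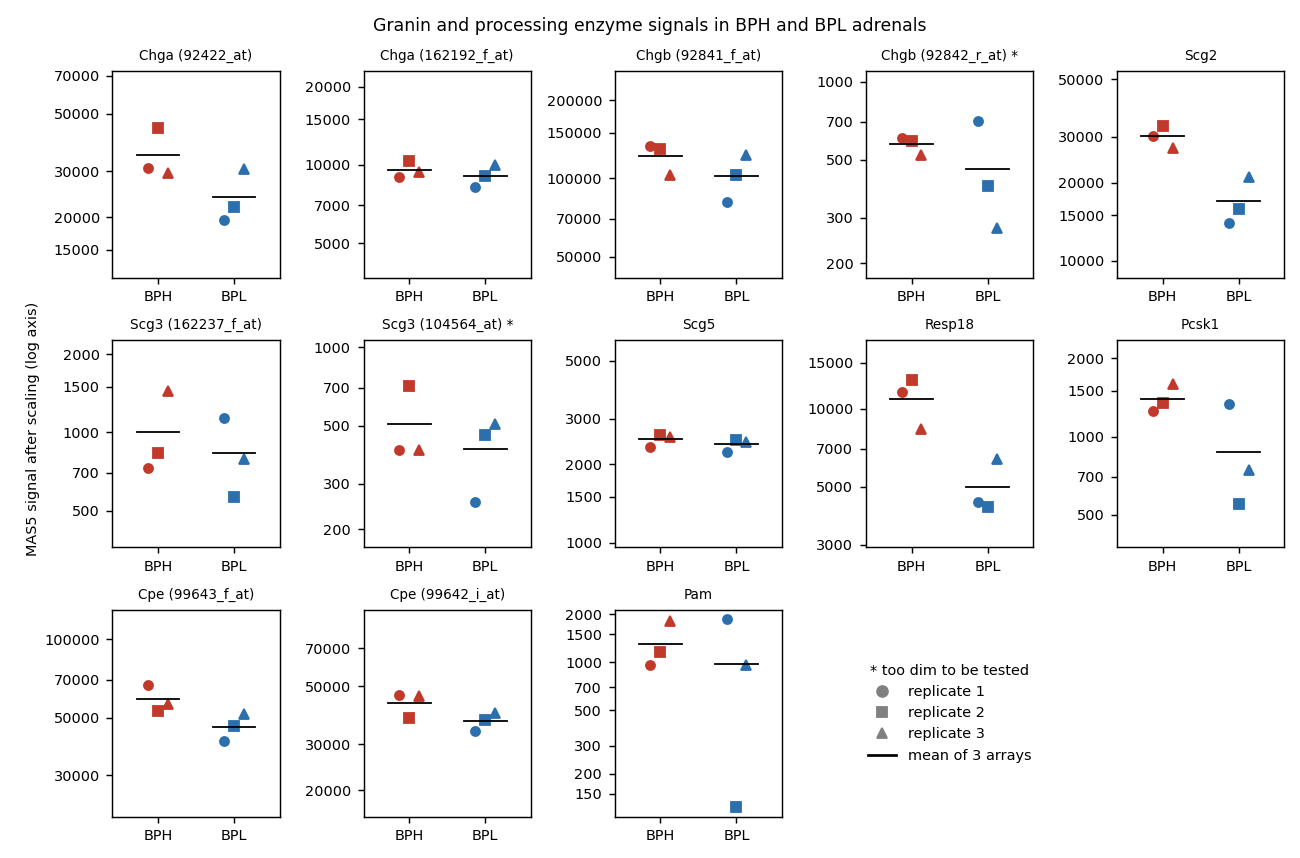
MAS5 signal after scaling (log axis) of each of the 13 member probe sets in 3 BPH and 3 BPL arrays; points are arrays, shaped by replicate number, bars are means of 3 arrays, and an asterisk marks the 2 probe sets too dim to be tested. Only the panels of Scg2, Resp18 and the Cpe probe set 99643_f_at show all BPH points above all BPL points, and the Pam point of BPL replicate 2 lies at 124.

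Resp18 encodes a luminal protein of the secretory pathway of endocrine and neuroendocrine cells, first described in the pituitary as a transcript regulated with secretory activity. Its signal was 11574, 12847 and 8358 in BPH replicates 1, 2 and 3, against 4390, 4181 and 6390 in BPL replicates 1, 2 and 3. The strains did not overlap, and the lowest BPH array stood at 1.31 times the highest BPL array. The mean signal was 10926 ± 2314 in BPH and 4987 ± 1219 in BPL (SD, n = 3 each), a ratio of 2.19. The log2 difference was 1.10 ± 0.23 (SE, limma adjusted p = 0.034, 95% confidence interval 0.59 to 1.62), which ranked 159 of 7453.

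Scg2 encodes secretogranin II, a granin from which the peptide secretoneurin is cut. It gave signals of 30135, 33092 and 27224 in BPH replicates 1, 2 and 3, against 14030, 15818 and 21065 in BPL replicates 1, 2 and 3. All 3 BPH arrays again lay above all 3 BPL arrays, the lowest at 1.29 times the highest BPL array. The mean was 30150 ± 2934 in BPH and 16971 ± 3656 in BPL (SD, n = 3 each), a ratio of 1.78, and the log2 difference was 0.84 ± 0.19 (SE, limma adjusted p = 0.048, 95% confidence interval 0.41 to 1.27). This adjusted p lies next to the threshold: with the dim probe sets left out by mean linear signal in place of mean log2 value it was 0.052 (limma), at the same difference. Among 19 alternative settings, those that leave out arrays could not turn the sign of either gene, as the strains did not overlap. Those that change the filter or the variance model, or add a replicate block, keep the difference itself. The difference was positive in all 19 settings for both genes. Resp18 kept its call in 10 of them, with log2 differences of 0.47 to 1.29 (limma adjusted p from 0.0085 to 1.0), and Scg2 in 4, with 0.36 to 1.0 (limma adjusted p from 0.015 to 1.0).

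**Figure D2:**
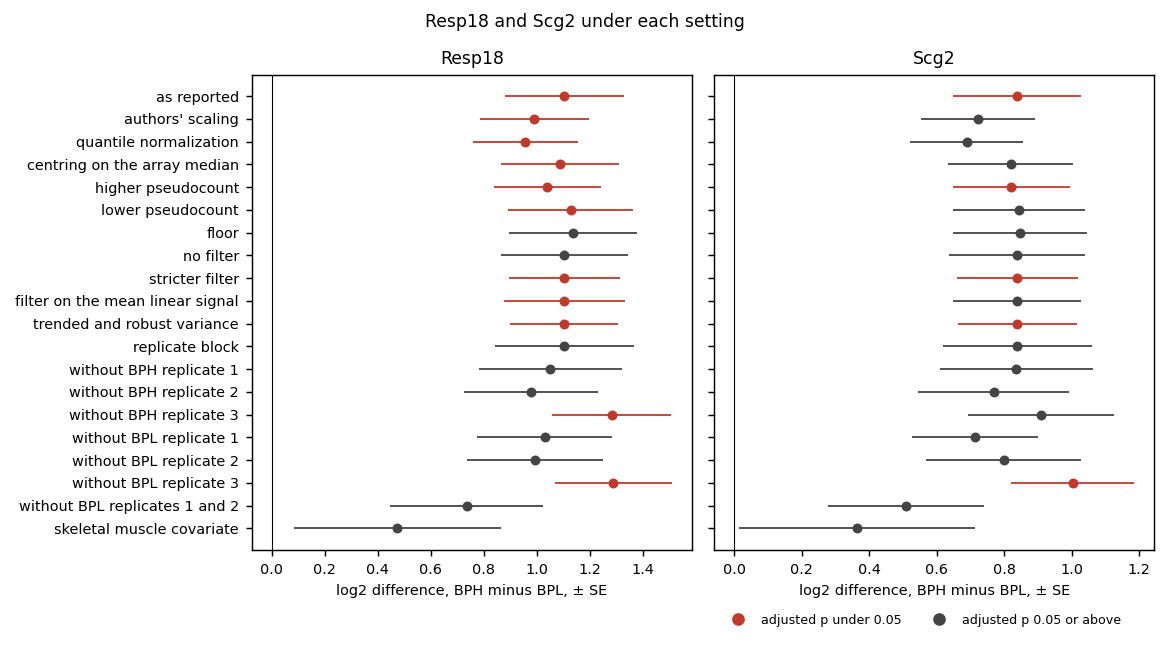
Log2 difference, BPH minus BPL, with its standard error for Resp18 (left) and Scg2 (right) as reported and under each of 19 alternative settings; red points have an adjusted p under 0.05. The points stay to the right of 0 throughout, and the lowest ones, 0.47 for Resp18 and 0.36 for Scg2, are those with the skeletal muscle covariate.

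Leaving out a single array removed these calls in most cases. Without BPH replicate 1, BPH replicate 2, BPL replicate 1 or BPL replicate 2 in turn, both genes lost the call while the log2 differences were 1.05, 0.98, 1.03 and 0.99 for Resp18 and 0.84, 0.77, 0.71 and 0.80 for Scg2. Scg2 also lost its call without BPH replicate 3, at a log2 difference of 0.91. BPL replicates 1 and 2 held the highest signals of skeletal muscle transcripts: summed over 20 muscle markers, the signal was between 12516 and 14015 in BPH arrays, against 220605, 535827 and 41558 in BPL replicates 1, 2 and 3. Without BPL replicates 1 and 2 the log2 difference was 0.73 for Resp18 (limma adjusted p = 0.45) and 0.51 for Scg2 (limma adjusted p = 0.55), resting on 1 BPL array that was assumed to vary like the BPH arrays. Set against BPL replicate 3 alone, the mean BPH signal was 1.71 times as high for Resp18 and 1.43 times for Scg2. With the muscle marker mean as a covariate, which itself differs between the strains, neither gene passed. As a sign of RNA quality, Gapdh control probes near the end of the transcript were compared on the log2 scale with those near its start. This ratio was 0.084 to 0.21 in BPH arrays and -0.033 to 0.057 in BPL arrays. For Actb it was 0.94 to 1.25 in BPH arrays and 0.79 to 0.90 in BPL arrays, and the part of RNA quality in the differences was not tested.

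Upstream sequences of the members are shown because several granin and convertase genes are known for a cAMP response element close to their start, the site bound by CREB and related factors. RefSeq promoter windows on GRCm38.p6, each with 250 bases before and 50 after the annotated start, were available for 9 of the 10 genes, Pcsk2 included and Cpe not. They are sequences of the reference genome, and the promoters of BPH and BPL mice were not read here. Bases -150 to -31 from the start are printed 5′ to 3′ on the gene's strand for the 2 called genes (Resp18 and Scg2) and for Chgb, Chga and Pcsk1. Capitals mark matches of the full element TGACGTCA or of its core TGACG on either strand, and the core lies within the full element. The stretches lie at chr1:75278446-75278565 (minus strand, Resp18), chr1:79440057-79440176 (minus strand, Scg2), chr2:132781492-132781611 (plus strand, Chgb), chr12:102554791-102554910 (plus strand, Chga) and chr13:75089707-75089826 (plus strand, Pcsk1).
Resp18: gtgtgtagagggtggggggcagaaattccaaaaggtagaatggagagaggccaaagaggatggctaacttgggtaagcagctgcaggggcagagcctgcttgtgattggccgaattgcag
Scg2: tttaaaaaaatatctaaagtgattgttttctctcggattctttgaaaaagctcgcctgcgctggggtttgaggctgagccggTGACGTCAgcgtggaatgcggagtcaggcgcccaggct
Chgb: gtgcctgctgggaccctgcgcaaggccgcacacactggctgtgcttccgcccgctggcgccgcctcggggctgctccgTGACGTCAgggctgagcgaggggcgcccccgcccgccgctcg
Chga: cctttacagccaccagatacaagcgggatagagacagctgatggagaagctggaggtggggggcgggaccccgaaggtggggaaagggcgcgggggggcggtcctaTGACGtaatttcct
Pcsk1: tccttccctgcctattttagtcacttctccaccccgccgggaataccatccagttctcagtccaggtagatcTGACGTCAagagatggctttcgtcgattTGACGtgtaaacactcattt

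The full element was found in the windows of Scg2 (bases -68 to -61), Chgb (-72 to -65) and Pcsk1 (-78 to -71), which is 3 of 9 members, and in 2.03% of the 27025 genes with a window. Pcsk1 held a further core at -50 to -46, and Chga held a core at -44 to -40. The core, alone or within the full element, was found in 7 of the 9 members and in 23% of all genes. The motif TATAAA, searched on both strands, was found in Chga only, at 6 to 11 bases after the annotated start, and in 15.7% of all genes. Resp18 and Pam held none of these letters in their windows. Of the 3 genes with the full element 1, Scg2, passed the test, and Resp18 passed with no match in this window.

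**Figure D3:**
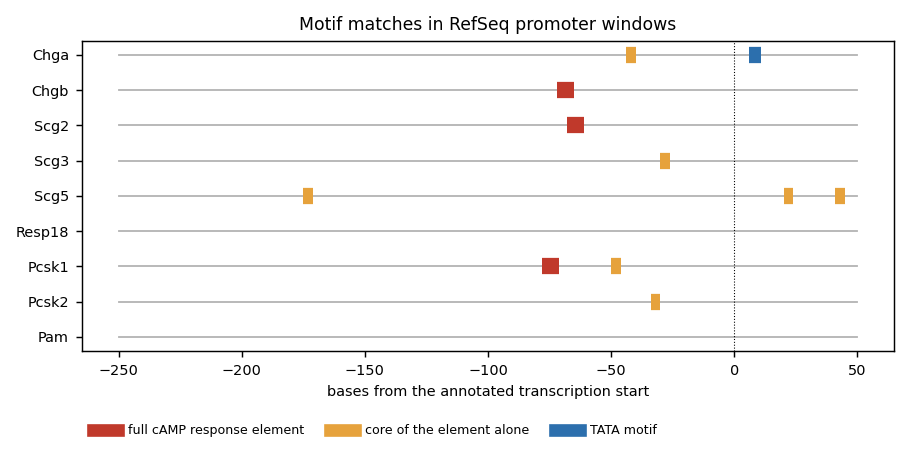
Position of motif matches, in bases from the annotated transcription start, in the promoter windows of 9 member genes; red blocks are the full cAMP response element, orange blocks its core alone and the blue block the TATA motif. The red blocks of Scg2, Chgb and Pcsk1 lie within bases -78 to -61, and the lines of Resp18 and Pam are empty.

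Chga encodes chromogranin A, the major soluble granin of chromaffin granules and the precursor of catestatin, a peptide that inhibits catecholamine release. Its probe set 92422_at gave signals of 30835, 43907 and 29458 in BPH replicates 1, 2 and 3, against 19514, 21875 and 30586 in BPL replicates 1, 2 and 3. BPL replicate 3 lay above BPH replicate 3, so the strains overlapped. The log2 difference of 0.53 ± 0.23 did not pass (SE, limma adjusted p = 0.23, 95% confidence interval 0.014 to 1.05). The second probe set, 162192_f_at, read 9001, 10326 and 9408 in BPH arrays and 8223, 9042 and 10020 in BPL arrays. It differed by 0.075 ± 0.15 (limma adjusted p = 0.81, 95% confidence interval -0.27 to 0.42), and this sign turned to -0.039 with the authors' scaling and to -0.093 after quantile normalization. The log2 ratio of the first to the second probe set was 1.75, 2.07 and 1.63 in BPH replicates 1, 2 and 3, against 1.23, 1.26 and 1.59 in BPL replicates 1, 2 and 3. That ratio was higher in all 3 BPH arrays, by 0.46 (p = 0.1 in a 2-sided exact permutation test, which can go no lower with 3 arrays a strain, and adjusted p = 0.4 over the 4 genes with 2 probe sets). Probes of a set with the suffix _f can match several related sequences, which applies to one probe set each of Chga, Chgb, Scg3 and Cpe.

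Chgb encodes chromogranin B, the other large granin of the chromaffin granule. Its probe set 92841_f_at was the brightest member. It read 132715, 129871 and 103155 in BPH replicates 1, 2 and 3, against 81191, 103073 and 122488 in BPL replicates 1, 2 and 3. The strains overlapped, and the log2 difference of 0.26 ± 0.20 did not pass (limma adjusted p = 0.47, 95% confidence interval -0.19 to 0.72). The other probe set, 92842_r_at, was too dim to be tested, at 523 to 604 in BPH arrays and 274 to 708 in BPL arrays. In the fit with no filter it differed by 0.28 ± 0.25 (limma adjusted p = 0.65).

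Scg3 encodes secretogranin III, which binds chromogranin A and holds it at the cholesterol-rich granule membrane. Its tested probe set, 162237_f_at, read 729, 832 and 1449 in BPH replicates 1, 2 and 3, against 1141, 566 and 789 in BPL replicates 1, 2 and 3. Within each strain the highest array was about 2 times the lowest (1.99 in BPH and 2.02 in BPL), more than the ratio of the means, 1.21. The log2 difference was 0.21 ± 0.27 (limma adjusted p = 0.69, 95% confidence interval -0.41 to 0.84), and it was -0.037 without BPH replicate 3. The other probe set, 104564_at, was not tested at signals of 402 to 712 in BPH arrays and 256 to 507 in BPL arrays. It differed by 0.21 ± 0.25 with no filter (limma adjusted p = 0.74).

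Scg5 encodes a small chaperone that binds prohormone convertase 2 in the secretory pathway and inhibits it until it is activated. It was the most even member, at 2339, 2585 and 2558 in BPH replicates 1, 2 and 3, against 2232, 2492 and 2436 in BPL replicates 1, 2 and 3. The mean was 2494 ± 135 in BPH and 2387 ± 137 in BPL (SD, n = 3 each), and the strains overlapped. The log2 difference was 0.059 ± 0.14 (limma adjusted p = 0.84), with a 95% confidence interval of -0.27 to 0.39, and its sign turned to -0.049 with the authors' scaling and -0.029 after quantile normalization. The estimate for Resp18, 1.10, lies outside this interval, and the genes were not tested against each other.

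**Figure D4:**
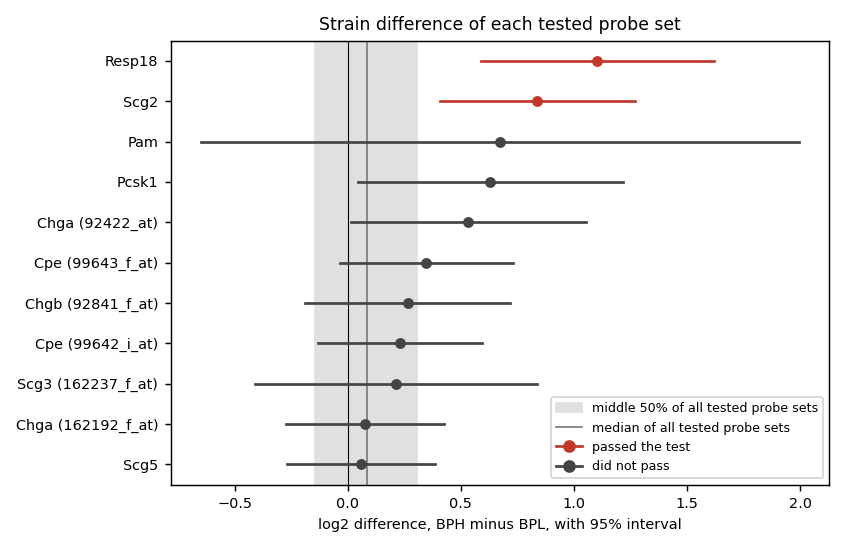
Log2 difference, BPH minus BPL, with its 95% confidence interval for the 11 tested member probe sets, sorted by size; red marks those that passed the test, the grey band holds the middle 50% of all 7453 tested probe sets and the grey line their median, 0.08. Every point lies right of 0 with this scaling (Scg5 and Chga 162192_f_at turn negative with the authors' scaling and after quantile normalization), Resp18 (1.10) and Scg2 (0.84) lie farthest right, and the interval of Pam runs from -0.65 to 2.0.

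Pcsk1 encodes prohormone convertase 1, the endoprotease that makes the early cuts in many precursors. It read 1252, 1342 and 1599 in BPH replicates 1, 2 and 3, against 1330, 551 and 742 in BPL replicates 1, 2 and 3. BPL replicate 1 lay within the BPH range while the other two BPL arrays lay below it, and the highest BPL array was 2.41 times the lowest. The mean was 1398 ± 180 in BPH and 874 ± 406 in BPL (SD, n = 3 each). The log2 difference of 0.63 ± 0.26 did not pass (limma adjusted p = 0.22, 95% confidence interval 0.045 to 1.22). It was 0.40 to 0.93 over the 18 alternatives in which Pcsk1 was tested, and none of the 18 called it (lowest limma adjusted p = 0.056).

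Cpe encodes carboxypeptidase E, which trims the basic residues that convertases leave behind and also acts in sorting of cargo to the granule. Both of its probe sets were bright. Probe set 99643_f_at read 66539, 53179 and 56382 in BPH replicates 1, 2 and 3, against 40603, 46221 and 51432 in BPL replicates 1, 2 and 3. The BPH arrays all lay above the BPL arrays, but the gap was small, with the lowest BPH array at 1.03 times the highest BPL array. The log2 difference of 0.35 ± 0.17 did not pass (limma adjusted p = 0.28, 95% confidence interval -0.033 to 0.73). Probe set 99642_i_at read 46193, 37808 and 45806 in BPH arrays and 33713, 37245 and 39380 in BPL arrays, with overlap. It differed by 0.23 ± 0.16 (limma adjusted p = 0.44). The intervals of both probe sets leave out the estimate for Resp18, 1.10. They overlap with its own interval, which starts at 0.59, and the genes were not tested against each other.

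Pam encodes the amidating enzyme, which needs copper and ascorbate, as does the dopamine beta-hydroxylase of the same granules. It read 962, 1160 and 1812 in BPH replicates 1, 2 and 3, against 1861, 124 and 966 in BPL replicates 1, 2 and 3. The highest BPL array was 15.0 times the lowest, and both the highest and the lowest of the 6 arrays were BPL arrays. The log2 difference was 0.67 ± 0.58 (limma adjusted p = 0.54, 95% confidence interval -0.65 to 2.0). One array set its sign: without BPL replicate 2 the difference was -0.076.

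Within the BPL strain the bright granin and processing probe sets shared their highest array. BPL replicate 3 was the highest BPL array for both Chga probe sets, for Chgb 92841_f_at, for Scg2, for Resp18 and for both Cpe probe sets, and it was the BPL array with the least muscle signal. This was not particular to the members, since the summed signals of cortex and chromaffin markers were also highest there among BPL arrays. Those of fat and kidney markers were highest in BPL replicate 1, and that of muscle markers in BPL replicate 2. The mean BPH signal stood at 1.14 times the signal of BPL replicate 3 for Chga 92422_at, 0.956 times for Chga 162192_f_at and 0.995 times for Chgb 92841_f_at. For the Cpe probe sets it stood at 1.14 and 1.10 times. Among the dimmer members, Pcsk1, Pam, Scg3 162237_f_at and the untested Chgb 92842_r_at were highest in BPL replicate 1. Scg5 was highest in BPL replicate 2, and the untested Scg3 104564_at in BPL replicate 3.

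Transcripts of chromaffin cells outside the members were read beside them. Of 26 listed chromaffin markers 22 had a probe set and 13 were tested, with a median log2 difference of 0.61. Of these 13, 5 rose (Th, Uchl1, Ncam1, Eno2 and Dlk1), against 3.18% of all tested probe sets. Differences were positive in 11 of the 13, while Slc6a2 (-0.19) and Hand1 (-0.10) were negative and did not pass. Dbh and Slc18a1, which also define these cells, had no probe set and were not analysed here. The count of 5 was 2 with the authors' scaling or the replicate block, 3 after quantile normalization or with the floor, and 1 with no filter. It was 1 to 4 without single arrays, and 0 by limma without BPL replicates 1 and 2 or with the muscle covariate. Over the 22 measured markers, the 9 too dim to be tested included, the summed signal was 133193 to 173824 in BPH arrays and 66565 to 94965 in BPL arrays, without overlap. Th, whose product tyrosine hydroxylase sets the pace of catecholamine synthesis, gave 34660, 47889 and 30381 in BPH replicates 1, 2 and 3, against 12088, 14506 and 19621 in BPL replicates 1, 2 and 3. Its log2 difference was 1.28 ± 0.24 (limma adjusted p = 0.023), and it was called in 12 of 19 alternatives. Pnmt, which makes adrenaline, differed by 0.90 ± 0.25 (limma adjusted p = 0.097) and Ddc, the decarboxylase after Th, by 0.27 ± 0.25 (limma adjusted p = 0.57), and neither passed. The part of chromaffin cell content in the differences of Resp18 and Scg2 was not tested.

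The mean log2 signal of those 13 markers was 12.30, 12.55 and 12.51 in BPH replicates 1, 2 and 3, against 11.75, 11.77 and 12.08 in BPL replicates 1, 2 and 3, a difference of 0.58. Subtracting it from each member within each array gives a value in which the scaling of the array cancels, apart from the pseudocount. These values are a description, since 3 against 3 arrays cannot give an exact permutation p under 0.1. Resp18 stood at 1.23, 1.12 and 0.55 above the marker mean in BPH replicates 1, 2 and 3, against 0.41, 0.33 and 0.61 in BPL replicates 1, 2 and 3. Scg2 stood at 2.59, 2.48 and 2.23 above it in BPH arrays, against 2.04, 2.20 and 2.30 in BPL arrays. For both genes BPH replicate 3 fell below BPL replicate 3 on this scale, so the strains overlapped where the signals themselves had not. The mean difference on this scale was 0.52 for Resp18 and 0.25 for Scg2. The 13 markers themselves differed by -0.19 (Slc6a2) to 1.28 (Th) in log2 signal. The differences of Resp18 (1.10) and Scg2 (0.84) before the subtraction lie within that range.

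At the other end, Scg5 stood at -0.99, -1.10 and -1.08 relative to the marker mean in BPH replicates 1, 2 and 3, against -0.50, -0.37 and -0.71 in BPL replicates 1, 2 and 3. Chga 162192_f_at stood at 0.87, 0.81 and 0.72 in BPH arrays and at 1.29, 1.40 and 1.24 in BPL arrays. These were the only 2 of the 11 tested member probe sets whose strains did not overlap on this scale, and both were lower in BPH. Over all 7453 tested probe sets 49.2% lay lower in all BPH arrays on this scale and 2.19% higher, with a median difference of -0.50, so the members' count is no result about them. Differences of the other 7 ran from -0.37 for Scg3 162237_f_at to 0.090 for Pam, all with overlap, and that of Chga 92422_at was -0.051.

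**Figure D5:**
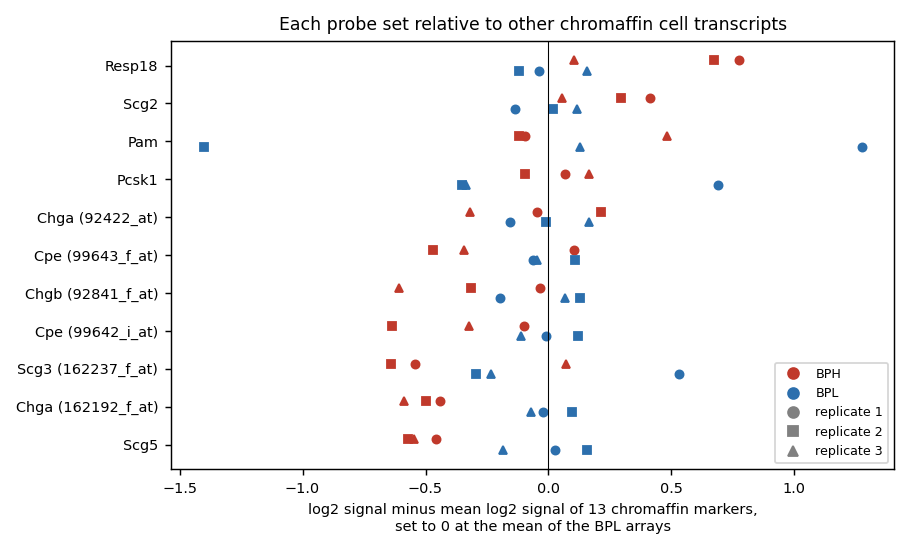
Log2 signal of each tested member probe set minus the mean log2 signal of 13 chromaffin markers in the same array, set to 0 at the mean of the BPL arrays; points are arrays, red for BPH and blue for BPL, shaped by replicate number. BPH points of Scg5 and Chga 162192_f_at lie left of all BPL points, and those of Resp18 and Scg2 overlap with BPL.

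Markers of other cells were checked for sources of granins outside the medulla. Islet cells of the pancreas also carry granins and convertases, and 8 of 14 listed pancreas markers had a probe set. Their summed signal was 14253 to 15482 in BPH arrays and 13690 to 15183 in BPL arrays. Among the islet hormones, Ins2 was at 70.0 to 78.4 in BPH arrays and 59.1 to 113 in BPL arrays, and Iapp at 21.4 to 47.4 in BPH arrays and 38.4 to 86.2 in BPL arrays, all below the pseudocount of 203. Gcg was at 29.6 to 283 in BPH arrays and 92.8 to 317 in BPL arrays, and Ppy at 1510 to 1742 in BPH arrays and 1690 to 2201 in BPL arrays. The digestive enzyme gene Cela1 was the brightest of the list, at 8607 to 11098 in BPH arrays and 6502 to 9565 in BPL arrays. Of the 10 tested cortex markers 1 rose (Mrap, a partner of the ACTH receptor), and their summed signal was 701389 to 821884 in BPH arrays and 561474 to 731182 in BPL arrays. All 10 differences were positive, against 60.5% of all tested probe sets, with a median of 0.18. In 4 of the 10 all BPH arrays lay above all BPL arrays. The mean log2 signal of the 10 was 15.28 to 15.51 in BPH arrays and 14.90 to 15.24 in BPL arrays, without overlap. No tested marker was called in the lists of fat (7 tested), endothelium (7), glia (6), kidney (2), pancreas (4) or leukocytes (6), which is 0 by limma in each, and of 16 tested skeletal muscle markers 10 fell. In 5 of the 6 tested leukocyte markers all BPH arrays nevertheless lay above all BPL arrays, with a median log2 difference of 0.44 over the 6. The summed signal of the 11 measured leukocyte markers was 19539 to 23642 in BPH arrays and 14699 to 16927 in BPL arrays, without overlap, and its part in the differences of Resp18 and Scg2 was not tested. Of the 7 tested fat markers, 2 lay lower in all BPH arrays (Ucp1 at -0.84 and Fabp4 at -0.39) and 1 higher (Retn at 0.99). Of the 7 tested endothelial markers 3 lay higher in all BPH arrays and 1 lower, and of the 6 glia markers 1 lower. Among all tested probe sets 19.7% lay higher and 7.97% lower. The parts of fat and cortex content were not tested either.

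Other genes of the granule pathway were taken from 4 lists. Of 17 other cleaving and trimming enzymes 12 were tested, and 1 rose and 0 fell, against 3.18% and 0.926% of all tested probe sets. The median log2 difference was 0.19. In 3 of the 12 all BPH arrays lay above all BPL arrays, and in 3 all lay below, against 19.7% and 7.97% of all tested probe sets. The 3 lower ones were Furin (-0.18), Pcsk4 (-0.29) and Ctsl (-0.40), none of which passed. The riser was Pcsk5, a convertase related to furin, at 6081, 4852 and 3876 in BPH replicates 1, 2 and 3, against 2830, 2264 and 2696 in BPL replicates 1, 2 and 3. The strains did not overlap, and the log2 difference was 0.86 ± 0.19 (limma adjusted p = 0.048). This call sits at the threshold as that of Scg2 does and held in 4 of 19 alternatives. Its other probe sets differed by 0.79 ± 0.26 (limma adjusted p = 0.14) and 0.14 ± 0.15 (limma adjusted p = 0.64), neither of which passed.

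A list of 5 other genes (Vgf, Pcsk1n, Gnas, Nucb1 and Nucb2) was set beside the granins, though not all of their products are granins. Of these 5 genes 4 were tested and 0 were called by limma, with a median log2 difference of 0.39. The brightest were Gnas, whose locus also encodes a granin-like protein, at 0.27 ± 0.19 (limma adjusted p = 0.45), and the calcium-binding protein Nucb1 at -0.075 ± 0.16 (limma adjusted p = 0.82). A dimmer Gnas probe set, 92672_at, differed by 1.32 ± 0.38 without passing (limma adjusted p = 0.10), and the annotation does not say which product of the locus either probe set measures. Pcsk1n, the precursor of an inhibitor of Pcsk1, read 3442, 6119 and 3396 in BPH replicates 1, 2 and 3, against 1836, 2353 and 3228 in BPL replicates 1, 2 and 3. The BPH arrays all lay above the BPL arrays, and the log2 difference of 0.74 ± 0.27 did not pass (limma adjusted p = 0.18).

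Of 20 prohormones and neuropeptide precursors, the substrates of these enzymes, 8 were tested. Of these 8, 1 rose and 0 fell, against 3.18% and 0.926% of all tested probe sets, with a median log2 difference of 0.11. Differences were positive in 5 of the 8, while Adm (-0.28), Pdyn (-0.21) and Nppa (-0.19) were negative and did not pass. Adm lay lower in all BPH arrays. The riser was Npy, neuropeptide Y, a peptide co-stored with catecholamines, at 52166, 78883 and 51264 in BPH replicates 1, 2 and 3, against 15738, 20970 and 29789 in BPL replicates 1, 2 and 3. Its log2 difference was 1.47 ± 0.27 (limma adjusted p = 0.023). It was called in 12 of 19 alternatives, with 0.99 without BPL replicates 1 and 2 (limma adjusted p = 0.28) and 0.84 with the muscle covariate (limma adjusted p = 1.0). Gal, the galanin precursor, came next at 0.98 ± 0.23 and just missed the threshold (limma adjusted p = 0.052), while its other probe set was at -0.30 ± 0.20 (limma adjusted p = 0.42). Of 23 granule membrane and exocytosis genes 10 were tested and 0 were called by limma, with a median of 0.37 and 9 of 10 differences positive, and 3 of the 23 are also among the chromaffin markers. The brightest were Cyb561, the granule cytochrome that regenerates ascorbate for the enzymes inside, at 0.099 ± 0.21 (limma adjusted p = 0.82), and Atp6ap1, a subunit of the proton pump, at 0.45 ± 0.19 (limma adjusted p = 0.22). Over all 7453 probe sets limma called 237 higher and 69 lower, while 1532 had an unadjusted p under 0.05. The split was 195 higher and 99 lower with the authors' scaling, and 183 higher and 89 lower after quantile normalization.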

How the data were processed

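Adrenal RNA was hybridised to Affymetrix arrays after biotin labelling, per the labels' protocols, with 1 array per sample and 3 samples per strain. Values in the authors' deposited table are signal intensities on a linear scale. MAS5 is the tool named in the submitters' processing notes. Its version and settings are not given in those sources, and no detection calls were used.

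Array medians differed by 21.0%, and a factor per array set every median to their mean, 1040. Tests used log2(signal + 203). This pseudocount, the 20th percentile of the signals, understates the change of dim genes. Control probe sets were left out, and so were the dimmest 40% of the others by mean log2 value, which left 7453. BPH and BPL were compared with limma 3.58.1 under R 4.3.3 (2-sided, eBayes moderation after lmFit), and p-values were adjusted over all tested probe sets by Benjamini-Hochberg, with a threshold of 0.05. The code was tested on simulated data.

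A gene was named only from a probe set whose single symbol in the platform annotation is that gene. The members, the gene lists and the alternatives were chosen with earlier results of these data known. Named genes outside the members were the called genes of each pathway list or, where none was called, the 2 brightest, plus Th, Ddc and Pnmt. Pcsk1n and Gal were added after their values were seen. Gene lists use 1 probe set per gene, the brightest tested one. Promoter windows are those of RefSeq on GRCm38.p6, and the array table states no genome build. Settings tried as alternatives were the scaling, the pseudocount, a floor, the filter, the variance model, a replicate block, each array left out, BPL replicates 1 and 2 left out and a skeletal muscle covariate. A filter on the mean linear signal was added after the data were seen.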

Additional observations from a re-analysis of the deposited data

How the results depend on the processing

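With 3 arrays per strain, the calls of Resp18 and Scg2 depended on the setting. Their differences stayed positive, but leaving out arrays or changing the filter, the variance model or the block could not have turned them. Of 11 tested member probe sets 2 were called as reported. The count was 1 with the authors' scaling, quantile normalization, centring, the lower pseudocount or the filter on the mean linear signal. It was 0 by limma with no filter, with the floor, with the replicate block, with the skeletal muscle covariate or without BPL replicates 1 and 2, and 0 to 2 when single arrays were left out. Over all probe sets 306 were called, against 127 with no filter, 112 to 372 without single arrays, 16 with the covariate and 92 without BPL replicates 1 and 2. The members' median log2 difference, 0.35, was 0.28 to 0.43 without single arrays, 0.062 with the covariate and 0.18 without BPL replicates 1 and 2. Whether arrays with the same replicate number belong together is not stated. Deviations of same-numbered arrays correlated at -0.058, -0.054 and -0.18, which cannot settle it with 3 arrays per strain. With the replicate block 239 probe sets were called.

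Signs turned only for differences that had not passed. With the authors' scaling Chga 162192_f_at was at -0.039, Scg5 at -0.049 and Cyb561 at -0.017, and after quantile normalization they were at -0.093, -0.029 and -0.059. Without BPL replicates 1 and 2, Chga 162192_f_at was at -0.066, Chgb at -0.016 and Cyb561 at -0.0032. With the covariate, values were -0.023 and -0.11 for the Chga probe sets, -0.080 for Chgb, -0.70 for Pam, -0.23 for Cyb561, -0.038 for Atp6ap1 and -0.13 for Ddc. Without single arrays Nucb1 ranged from -0.16 to 0.029, Cyb561 from -0.080 to 0.22 and Pam from -0.076 to 1.28, and Scg3 was at -0.037 without BPH replicate 3. The cause of these changes was not tested.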
